A study of Homo sapiens with 25 samples.

Results

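The messenger RNAs of 10 genes of NF-κB signalling were followed through a set of RIP-seq libraries. They were TAB2, TAB3 and MAP3K7, which act upstream of the IκB kinases, the NF-κB subunits NFKB1 and RELA, the inhibitors NFKBIA and TNFAIP3, and the NF-κB target genes IER3, CXCL8 and BIRC3. The 10 genes were named one by one out of 63086 counted genes, of which 20044 were protein-coding, and the choice rested in part on measured values. TAB2 was chosen by its difference between the RQ mutant and wild-type IGF2BP1, and IER3 by the difference between its arsenite responses in RQ and wild-type cells. Those values are therefore given below as a description without a test, while the other 8 genes were taken for their place in the pathway, with earlier results of these libraries already known. Of the 10 genes, 8 passed the filter on low counts and were tested, and TNFAIP3 and CXCL8 did not pass it.

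RIP-seq sequences the RNA that is pulled down with a protein. The protein was IGF2BP1, an RNA-binding protein with KH and RRM domains, carried as an mCherry fusion and captured on beads from HCT116 cells, a human colorectal carcinoma line. All 4 fusion lines carried IGF2BP2 KO, IGF2BP3 KO and the Tet-OsTIR1-PURO cassette and expressed mCherry-IGF2BP1 as WT, S181E, Y396E or RQ. S181E lies in the first and Y396E in the second disordered linker, and both mimic phosphorylation, while RQ has glutamines in place of 4 arginines in the RGG/RG stretch of the first linker. Control cells received PBS, and stressed cells received 500 µM sodium arsenite, an oxidative stressor, for 2 h. Each line had 3 control and 3 arsenite libraries, except RQ in arsenite with 2, and parental cells without the fusion gave 1 library per treatment, the bead background. The authors describe the background cells as nonengineered HCT116, so they may differ from the fusion lines in the knockouts as well as in the fusion. The knockouts were made in single-cell clones, whereas the fusion was introduced by lentivirus under an hPGK promoter and the cells were sorted as a population within a narrow mCherry gate. A RIP-seq level depends both on how much of an mRNA was bound and on how much of it the cell contained, and total RNA was not used here, so the 2 cannot be told apart.

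The pathway runs from receptors of cytokines and microbial products to transcription. Receptor adaptors and ubiquitin ligases build ubiquitin chains, TAB2 or its paralog TAB3 binds these chains and brings in the kinase TAK1, which MAP3K7 encodes, and TAK1 activates the IκB kinases. These kinases mark IκBα, the product of NFKBIA, for degradation, which frees dimers of NF-κB subunits such as p50, made from NFKB1, and RelA to enter the nucleus. Among their targets are the feedback inhibitors NFKBIA and TNFAIP3 (A20), the ubiquitin ligase BIRC3 (cIAP2), the early response gene IER3 and the chemokine CXCL8 (interleukin-8). Many of the induced transcripts are short-lived and carry AU-rich elements. Arsenite is itself known to act on this pathway at the level of the IκB kinases.

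Totals of the 23 fusion libraries lay between 22246381 and 60273548 counts, against 1238013 for the parental control and 18942497 for the parental arsenite library. Levels are given as CPM, counts scaled to library size. All 6 epithelial markers had a median over 10 CPM, and the markers of immune, fibroblast and endothelial cells summed to at most 1.61, 13.8 and 2.32 CPM in any fusion library. IGF2BP1 had 0 counts in both parental libraries and between 37.2 and 123 CPM in the fusion libraries, with means of 66.4 in WT, 66.3 in S181E, 93.0 in Y396E and 111 in RQ control cells. These are levels of its mRNA in the pulldown, not of the protein, and their part in the differences between lines was not tested. Transcripts of the knocked-out IGF2BP2 and IGF2BP3 were still counted, at 131 to 294 and 147 to 429 CPM.

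The mRNAs were searched for the letters that IGF2BP1 is best known to read, because they bear on which of the 10 could hold a site of the kind described in the ACTB zipcode. The match was CGGAC, then 10 to 15 bases, then either ACAC or ACAT, or else CCAC or CCAT, on the sense strand of the MANE Select transcript of each gene, and 11.9% of the transcripts of 8686 tested genes held at least 1. Of the 10 genes, TAB2 and MAP3K7 held 1 match each, both in the coding sequence, and these are shown 5′ to 3′ with the matched letters in capitals and the bases between them in lower case.
TAB2 (hg38, chr6:149379435-149379454, plus strand): CGGACcctacattagcACAT
MAP3K7 (hg38, chr6:90536374-90536397, minus strand): CGGACagccaagacgtagatCCAT
The other 8 transcripts held none, TAB3 among them. A match is a description of letters and not a measured site. Of the short elements alone, GGAC occurred 2.29 times per kb of mRNA in TAB2 and 1.81 in TAB3. Both were below the median of 3.56 over the tested genes, and IER3 had 8.89. CAT followed by any base but G occurred 12.1 times per kb in TAB2 and 14.9 in TAB3, above the median of 10.8. These densities exceeded those of 66.5% and 91.8% of the tested genes. ATTTA, the core of AU-rich elements, occurred 7 times in the 3′ UTR of TAB2, 8 in TAB3, 11 in MAP3K7 and 12 in BIRC3. It occurred 9 times in CXCL8, 6 in IER3, 5 in TNFAIP3, 3 in NFKBIA, 3 in NFKB1 and 0 in RELA. The median of the tested genes was 3, and these counts were not scaled to the length of the 3′ UTR.

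TAB2 and TAB3 were the tested members that stood at least 4-fold above the bead background in both treatments. In wild-type cells the mean TAB2 level was 12.7-fold over the parental library in control cells, with a 95% Poisson interval of 10.7 to 15.3 from the 130 parental counts, and 33.9-fold in arsenite, with an interval of 31.6 to 36.5. TAB3 was 4.77-fold and 16.3-fold over it. IER3 reached 2.93-fold and 1.78-fold, RELA 2.17-fold and 2.79-fold, NFKB1 1.08-fold and 1.16-fold, and BIRC3 0.645 and 3.62 times the parental level. MAP3K7 lay at 0.342 and 1.03 of the parental level and NFKBIA at 0.129 and 0.514, so these 2 mRNAs, like that of NFKB1, were not clearly above the background. Thus 2 of the 8 tested members were at least 4-fold over the parental library in each treatment, where 49% of all tested genes were in control cells and 9.18% in arsenite. The parental control library is shallow, and when scaled by total counts alone TAB2 was 5.50-fold and TAB3 2.05-fold over it in wild-type control cells. Against the deeper parental arsenite library, which was chosen as a second background after seeing the data, 11.7% of all tested genes reached 4-fold in wild-type control cells, and there TAB2 stood at 33.9-fold (rank 58 of 8734 genes), TAB3 at 17.4-fold (rank 122), BIRC3 at 8.22-fold and IER3 at 5.04-fold. With 1 parental library per treatment none of these ratios has a replicate check, and the intervals cover counting error only.

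**Figure D1:**
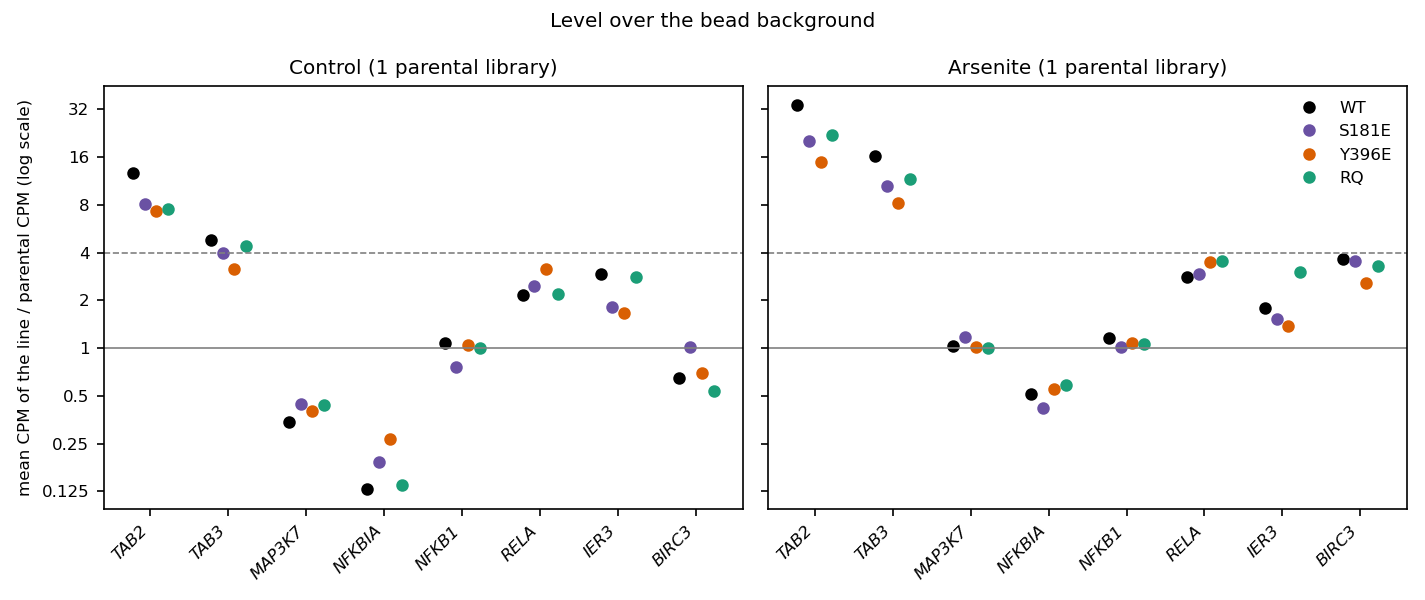
Mean level of each line divided by the parental library of the same treatment, on a log axis, for the 8 tested mRNAs in control (left) and arsenite (right). The lines mark a ratio of 1 and of 4, and TAB2 lies above 4 in every line and treatment, TAB3 in every line in arsenite.

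Per kb of exon, IER3 and TAB2 were the most abundant members in the wild-type pulldown. The mean level in control cells was 865 CPM per kb for IER3, 226 for TAB2, 48.8 for TAB3, 25.5 for RELA, 8.07 for MAP3K7, 6.10 for NFKB1, 4.23 for NFKBIA, 2.20 for BIRC3, 1.97 for TNFAIP3 and 0.0811 for CXCL8.

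**Figure D2:**
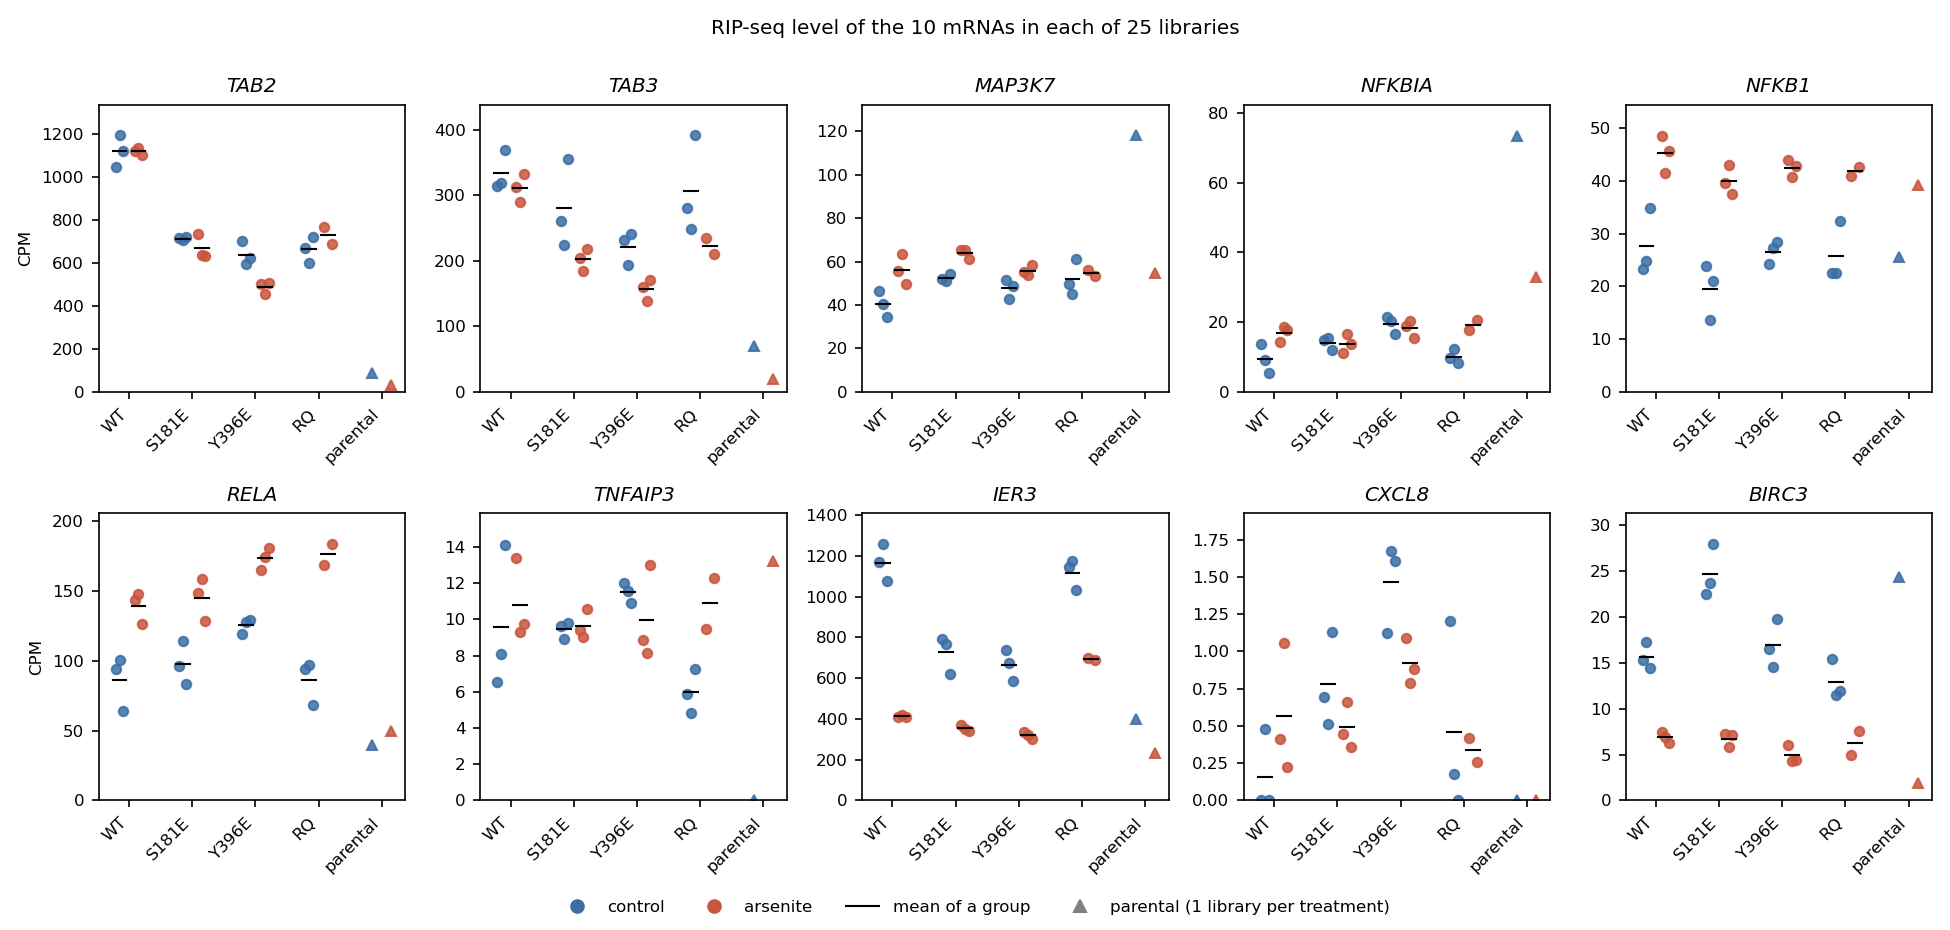
CPM of each of the 10 mRNAs in each of the 25 libraries, by line on the x axis, with control in blue, arsenite in red, black bars at group means and triangles for the parental libraries; each panel has its own y axis from 0. The 6 wild-type libraries carry the 6 highest TAB2 values, and IER3 and BIRC3 are lower in arsenite than in control in every fusion line.

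TAB2 (ENSG00000055208.20, chr6:149317534-149411613, plus strand) encodes the adaptor that binds ubiquitin chains and carries TAK1. In wild-type cells its level was 1045, 1192 and 1118 CPM in the control libraries and 1121, 1136 and 1100 CPM in arsenite. In S181E it was 715, 704 and 718 CPM in control cells and 735, 637 and 632 CPM in arsenite. In Y396E it was 700, 592 and 622 CPM in control cells and 502, 454 and 507 CPM in arsenite. All 12 libraries of the phosphomimetic mutants lay below all 6 wild-type libraries, and Y396E in arsenite was lowest. TAB2 was lower in S181E than in wild-type by a log2 fold change of -0.64 ± 0.09 (SE, n = 3 against 3, adjusted p = 3.6e-05) in control cells and of -0.75 ± 0.09 (adjusted p = 8.2e-06) in arsenite. It was lower in Y396E by -0.79 ± 0.09 (adjusted p = 1.4e-06) and by -1.17 ± 0.09 (adjusted p = 5.2e-09). Both comparisons use the same wild-type libraries, and TAB2 was known from earlier results of these libraries, so the tests are not independent of each other or of that choice.

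In RQ cells, whose contrast with wild-type chose TAB2, its level was 667, 600 and 721 CPM in control cells and 769 and 687 CPM in arsenite, a log2 difference from wild-type of -0.75 and -0.61. In wild-type cells TAB2 in arsenite was close to its control level, with a log2 fold change of -0.01 and a 95% interval of -0.20 to 0.18. In S181E it was -0.12 (interval -0.31 to 0.07) and in RQ 0.13 (interval -0.08 to 0.35), neither past the test, while in Y396E TAB2 fell by 0.39 on the log2 scale (adjusted p = 0.0009). The difference between the Y396E and wild-type arsenite responses was -0.38 ± 0.13 and did not pass the test (adjusted p = 0.12). When libraries were scaled on 1202 genes not above the parental libraries, the median of all tested genes in arsenite against control moved to between -0.31 and -0.47, and TAB2 was then called lower in wild-type (-0.35, where the median was -0.31) and S181E (-0.55, where it was -0.44) too.

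TAB3 (ENSG00000157625.16, chrX:30827442-30975084, minus strand) is the paralog of TAB2 and does the same work. Its control libraries were more spread: 314, 319 and 370 CPM in wild-type, 261, 225 and 355 in S181E, 232, 193 and 241 in Y396E, and 281, 248 and 392 in RQ, with the third replicate highest in every line. In arsenite the levels were 313, 291 and 333 CPM in wild-type, 204, 184 and 218 in S181E, 160, 138 and 172 in Y396E, and 236 and 210 in RQ. All arsenite libraries of the 3 mutants lay below all arsenite libraries of wild-type, as for TAB2. In arsenite TAB3 was lower than in wild-type in S181E by -0.63 ± 0.16 (adjusted p = 0.012) and in Y396E by -0.96 ± 0.16 (adjusted p = 5.9e-05), and in RQ the value was -0.48 (interval -0.84 to -0.12), which did not pass the test (adjusted p = 0.33). In control cells TAB3 was lower in Y396E (-0.58 ± 0.16, adjusted p = 0.0074), and the values were -0.24 in S181E (adjusted p = 0.28) and -0.12 in RQ (adjusted p = 0.69).

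In arsenite against control TAB3 had a log2 fold change of -0.11 (interval -0.43 to 0.21) in wild-type cells, and it was called lower in S181E (-0.50, adjusted p = 0.0069), Y396E (-0.50, adjusted p = 0.007) and RQ (-0.47, adjusted p = 0.023). With the scaling on genes not above the parental libraries it was called in wild-type too (-0.46, adjusted p = 0.044). The mutants' responses were not shown to differ from that of wild-type, with interaction values of -0.39, -0.39 and -0.35 (adjusted p = 0.46, 0.37 and 0.65). Single libraries decided several of these calls: without control replicate 3 the response in S181E was -0.28 (adjusted p = 0.099) and that in RQ -0.26 (adjusted p = 0.17), and the latter was also lost without RQ arsenite replicate 2 (-0.38, adjusted p = 0.16). Likewise the arsenite difference of S181E was lost without S181E replicate 2 (adjusted p = 0.076) or wild-type replicate 3 (adjusted p = 0.054), the control difference of Y396E without Y396E replicate 2 (adjusted p = 0.0504), and a control difference of S181E appeared without S181E replicate 3 (-0.46, adjusted p = 0.041). The control difference of Y396E was also lost with total counts alone as scaling (-0.31, adjusted p = 0.053). With edgeR's glmTreat it was lost too, as was the arsenite difference of S181E.

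MAP3K7 (ENSG00000135341.19, chr6:90513573-90587072, minus strand) encodes TAK1, the kinase that both adaptors carry. Its level was 46.3, 40.5 and 34.5 CPM in wild-type control libraries and 55.6, 63.7 and 49.6 CPM in arsenite, against 118 and 54.9 CPM in the parental libraries. The 2 wild-type groups did not overlap, and MAP3K7 rose by 0.46 ± 0.13 (adjusted p = 0.0026). The other lines gave arsenite values of 0.26 in S181E, 0.23 in Y396E and 0.08 in RQ, none past the test. In S181E control cells it was 51.9, 51.2 and 54.3 CPM, higher than wild-type by 0.38 ± 0.13 (adjusted p = 0.034), a call that was lost without any of wild-type replicates 2 and 3 or S181E replicates 1 and 3 (adjusted p from 0.065 to 0.13). Leaving out wild-type control replicate 1 brought in calls for Y396E (0.37, adjusted p = 0.044) and RQ (0.47, adjusted p = 0.037). MAP3K7 was called lower in no mutant. With the scaling on genes not above the parental libraries, its rise in wild-type was 0.12 and was no longer called.

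NFKB1 and RELA encode the subunits p50 and RelA of the canonical NF-κB dimer, and both rose in arsenite in all 4 lines. NFKB1 (ENSG00000109320.14, chr4:102501330-102617302, plus strand) was 23.3, 24.8 and 35.0 CPM in wild-type control libraries and 48.6, 41.6 and 45.8 CPM in arsenite. RELA (ENSG00000173039.20, chr11:65653599-65663090, minus strand) was 94.3, 101 and 63.7 CPM in wild-type control libraries and 143, 148 and 126 CPM in arsenite. For both genes every arsenite library of a line was above every control library of that line. The log2 fold change of NFKB1 was 0.71 ± 0.18 in wild-type (adjusted p = 0.0013), 1.01 in S181E (adjusted p = 3.2e-05), 0.68 in Y396E (adjusted p = 0.0018) and 0.70 in RQ (adjusted p = 0.0032). That of RELA was 0.68 ± 0.15 in wild-type (adjusted p = 0.00034), 0.54 in S181E (adjusted p = 0.0024), 0.47 in Y396E (adjusted p = 0.0072) and 1.02 in RQ (adjusted p = 8.7e-06). The parental libraries moved the same way, from 25.6 to 39.3 CPM for NFKB1 and from 39.8 to 49.9 CPM for RELA.

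Between lines RELA was higher in Y396E control cells, at 119 to 129 CPM against 63.7 to 101 CPM in wild-type, by 0.55 ± 0.15 (adjusted p = 0.0071). Without wild-type control replicate 3, the lowest of that group, the value was 0.38 (adjusted p = 0.0502). In arsenite the RELA libraries of Y396E (165 CPM or more) and of RQ (169 and 184 CPM) lay above those of wild-type, with values of 0.35 in both that did not pass the test (adjusted p = 0.07 and 0.5). The Y396E value lay between 0.05 and 0.57 over the alternatives. It was called with total counts alone as scaling, by DESeq2's Wald test, with the replicate block and in a fit of the compared groups alone. The RQ value was called in the last of these only. NFKB1 was called in no mutant, and its lowest value was -0.49 in S181E control cells (adjusted p = 0.059), which passed without replicate 1 of wild-type (adjusted p = 0.037) or of S181E (adjusted p = 0.028). With the scaling on genes not above the parental libraries the arsenite rise of NFKB1 in wild-type, Y396E and RQ and of RELA in S181E and Y396E was no longer called, and that of RELA in Y396E was 0.02.

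The inhibitors were among the scarcer mRNAs. NFKBIA (ENSG00000100906.12, chr14:35401513-35404749, minus strand), which encodes IκBα, was 13.8, 9.26 and 5.35 CPM in wild-type control libraries and 14.4, 18.5 and 17.9 CPM in arsenite. In RQ it was 9.63, 12.3 and 8.18 CPM in control cells and 17.7 and 20.6 CPM in arsenite. It rose in both of these lines, by 0.80 ± 0.25 in wild-type (adjusted p = 0.0064) and by 0.92 ± 0.27 in RQ (adjusted p = 0.0041). In the phosphomimetic lines control and arsenite libraries overlapped, at 12.1 to 15.3 and 11.2 to 16.6 CPM in S181E and at 16.6 to 21.6 and 15.4 to 20.3 CPM in Y396E, with log2 fold changes of -0.06 and -0.10 that did not pass the test. With the scaling on genes not above the parental libraries the rise in wild-type was 0.47 (adjusted p = 0.075), and NFKBIA was called lower in Y396E (-0.55, adjusted p = 0.032).

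The control level of NFKBIA in Y396E was higher than in wild-type by 1.04 ± 0.25 (adjusted p = 0.003), with no overlap, and in S181E the value was 0.56 (adjusted p = 0.11). The differences between the arsenite responses of the phosphomimetic lines and that of wild-type were -0.86 ± 0.35 in S181E and -0.90 ± 0.34 in Y396E, and neither passed the test (adjusted p = 0.29 and 0.16). Wild-type control replicate 1, the highest of its group, set both the S181E control value (0.96 without it, adjusted p = 0.0097) and the Y396E interaction (-1.30 without it, adjusted p = 0.023). The parental libraries held 73.6 and 32.9 CPM of NFKBIA, more than any fusion library.

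TNFAIP3 (ENSG00000118503.18, chr6:137867214-137883314, plus strand), which encodes the ubiquitin-editing inhibitor A20, was over 10 CPM in 7 of the 23 fusion libraries on the scale of the filter and was not tested with the others. Its level was 6.53, 8.06 and 14.1 CPM in wild-type control libraries and 13.4, 9.29 and 9.74 CPM in arsenite, and the groups overlapped. In RQ it was 5.90, 4.84 and 7.24 CPM in control cells and 9.47 and 12.3 CPM in arsenite. With edgeR's filterByExpr, which tested 13417 genes, TNFAIP3 was called in RQ cells only, where it rose by 0.86 ± 0.28 (adjusted p = 0.013), and the difference of this response from that of wild-type was 0.68 ± 0.38 (adjusted p = 0.62). No mutant was called against wild-type, and the closest was RQ in control cells with -0.67 (adjusted p = 0.15).

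IER3 (ENSG00000137331.12, chr6:30743199-30744548, minus strand) is an early response gene that NF-κB induces. In wild-type cells, which the choice of the gene used, its level was 1168, 1258 and 1076 CPM in control libraries and 410, 417 and 410 CPM in arsenite. In RQ cells, also used, it was 1146, 1175 and 1031 CPM in control libraries and 698 and 691 CPM in arsenite. The log2 fold changes were -1.51 in wild-type and -0.69 in RQ, and RQ against wild-type was -0.06 in control cells and 0.76 in arsenite, a difference of 0.82 between the responses. IER3 was therefore at the wild-type level in untreated RQ cells and above it in arsenite.

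The phosphomimetic lines, which the choice did not use, held less IER3 than wild-type in control cells. S181E held 793, 769 and 620 CPM in control cells and 372, 349 and 341 CPM in arsenite, and Y396E held 739, 673 and 585 CPM in control cells and 336, 322 and 301 CPM in arsenite. IER3 fell in both, by 1.06 ± 0.10 in S181E (adjusted p = 3e-09) and by 1.06 ± 0.10 in Y396E (adjusted p = 4.1e-09). In control cells it was lower than in wild-type by -0.67 ± 0.10 in S181E (adjusted p = 4.5e-05) and by -0.79 ± 0.10 in Y396E (adjusted p = 3.5e-06). These comparisons share the wild-type libraries that the choice of IER3 used. In arsenite it was lower in Y396E (-0.34 ± 0.10, adjusted p = 0.012), a call that was lost without Y396E replicate 3 (-0.29, adjusted p = 0.059), and in S181E the value was -0.22 (adjusted p = 0.2). The Y396E call was also lost with total counts alone as scaling (-0.11, adjusted p = 0.45) and with edgeR's glmTreat. The interaction values were 0.45 ± 0.14 in S181E and 0.46 ± 0.14 in Y396E. Both subtract the wild-type arsenite response that the choice of IER3 used, so they are a description and nothing is read from a test of them. The parental libraries also fell, from 398 to 231 CPM.

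BIRC3 (ENSG00000023445.17, chr11:102317484-102339403, plus strand) encodes a ubiquitin ligase that acts at TNF receptors and is itself an NF-κB target. It was 15.3, 17.2 and 14.5 CPM in wild-type control libraries and 7.49, 6.96 and 6.22 CPM in arsenite. It was over 10 CPM in 12 fusion libraries, which are the 12 control libraries, so it passed the filter through the group in which it was high. Its arsenite values are therefore given without a test. The log2 fold change in arsenite was -1.19 ± 0.20 in wild-type, -1.90 in S181E, -1.78 in Y396E and -1.06 in RQ. Without a filter on low counts it was called lower in all 4 lines. The parental libraries went from 36 to 44 counts, which at their depths is 24.3 and 1.90 CPM. In S181E control cells BIRC3 was 22.5, 23.6 and 27.9 CPM, higher than wild-type by 0.67 ± 0.20 (adjusted p = 0.017), and without S181E replicate 3 the call was lost (0.56, adjusted p = 0.079). In arsenite the log2 difference of Y396E from wild-type was -0.46, also given without a test.

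CXCL8 (ENSG00000169429.12, chr4:73740541-73743716, plus strand), which encodes interleukin-8, was near the limit of detection. It had between 0 and 42 counts in the fusion libraries, at most 1.68 CPM, and 0 counts in both parental libraries. In Y396E control cells it held 29, 29 and 32 counts against 0, 6 and 0 counts in wild-type, and with filterByExpr no comparison of CXCL8 was called, the closest being this one (adjusted p = 0.058).

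**Figure D3:**
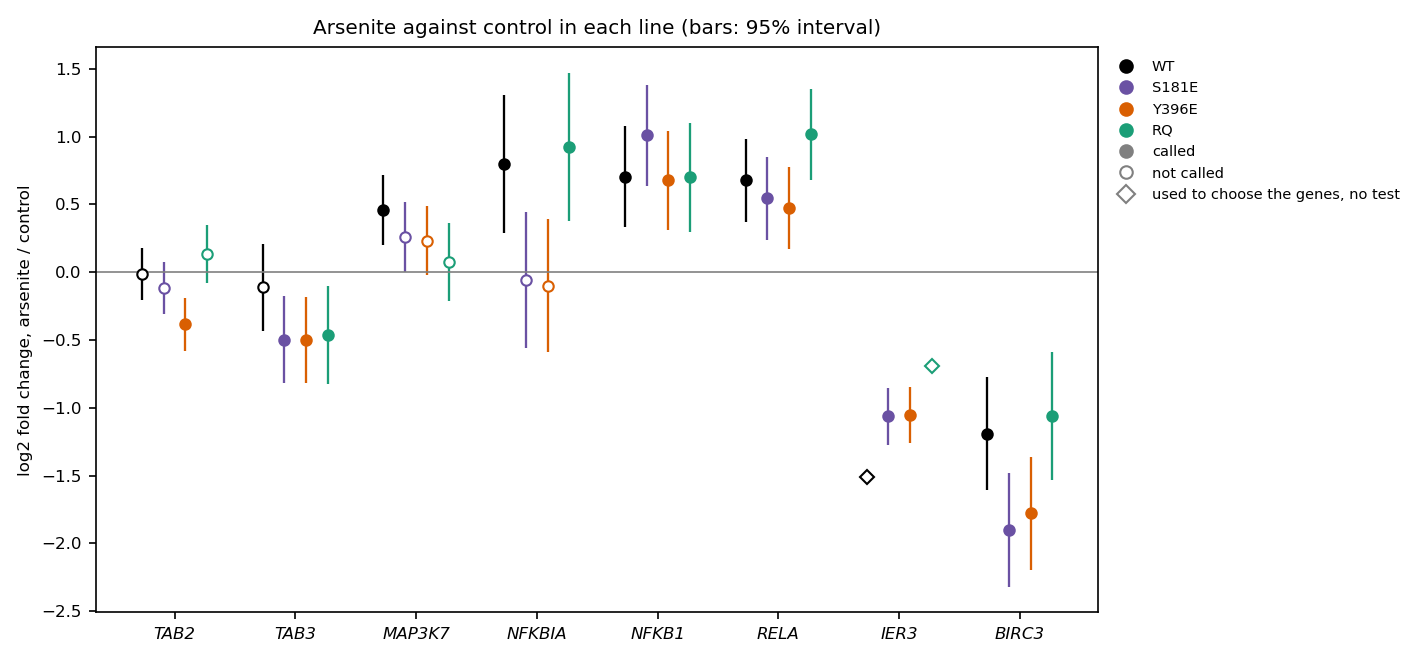
Log2 fold change of arsenite against control for the 8 tested mRNAs in each line, with bars for the 95% interval; filled circles are called, open circles are not, and open diamonds are values that chose the genes and carry no interval. NFKB1 and RELA lie above 0 and IER3 and BIRC3 below 0 in all 4 lines, with TAB2 and TAB3 between them. The BIRC3 points are drawn as called and with intervals, but its passage of the filter means that no test is read from them.

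Counted over the members, most differed between arsenite and control in each line, as did the genes at large. Calls needed both an adjusted p below 0.05 and a fold change beyond 20%. In wild-type cells, leaving out IER3, 4 of the 7 tested members were called higher and 1 lower, where 35.4% of all 8734 tested genes were called higher and 31.8% lower. In S181E 2 of 8 were called higher and 3 lower, against 33.3% and 34.6% of all genes. In Y396E 2 of 8 were called higher and 4 lower, against 31.3% and 33.8%. In RQ, leaving out IER3, 3 of 7 were called higher and 2 lower, against 32.4% and 32.3%. With about 1 gene in 3 called in each direction, these counts do not set the members apart, and they include BIRC3, whose passage of the filter is described above.

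Between lines, members were called in both phosphomimetic mutants. In S181E control cells 2 of 8 tested members were called higher than in wild-type and 2 lower, where 12.8% and 8% of all genes were, and in Y396E control cells 2 were called higher and 3 lower, against 16.2% and 12.7%. In arsenite 2 of 8 were called lower in S181E and 3 of 8 in Y396E, none higher, against 5.34% and 19.4% of all genes called lower and 2.2% and 13.1% called higher. These counts hold TAB2 and IER3, which were chosen through contrasts with the same wild-type libraries, so nothing is read from them against the shares of all genes. Leaving out both genes, of 6 members 2 were called higher and 0 lower in S181E control cells (MAP3K7 and BIRC3, with 4 at an unadjusted p under 0.05), 2 higher and 1 lower in Y396E control cells (NFKBIA, RELA and TAB3), and 1, TAB3, lower in each of these mutants in arsenite. In RQ, likewise without TAB2 and IER3, edgeR called 0 of 6 members in control cells and 0 of 6 in arsenite, with 1 and 2 at an unadjusted p under 0.05 and 0 by DESeq2's Wald test in both. There 3.51% of all genes were called higher and 2.83% lower in control cells, and 0.286% and 0.218% in arsenite.

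Responses to arsenite were compared between each mutant and wild-type. edgeR called 0 of 8 members in the S181E interaction and 0 of 8 in that of Y396E, with 3 and 4 at an unadjusted p under 0.05 and 1 by DESeq2 in each, where 0.389% and 2.85% of all genes were called. These counts hold TAB2 and IER3, which were chosen through contrasts with the same wild-type libraries, and the DESeq2 call in each was IER3. Nothing is read from them against the shares of all genes. Leaving out both genes, edgeR called 0 of 6 in each interaction, with 2 and 2 at an unadjusted p under 0.05. In the RQ interaction, leaving out TAB2 and IER3, it called 0 of 6, with 0 at an unadjusted p under 0.05 and 0 by DESeq2, where 0.0687% of all genes were called.

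**Figure D4:**
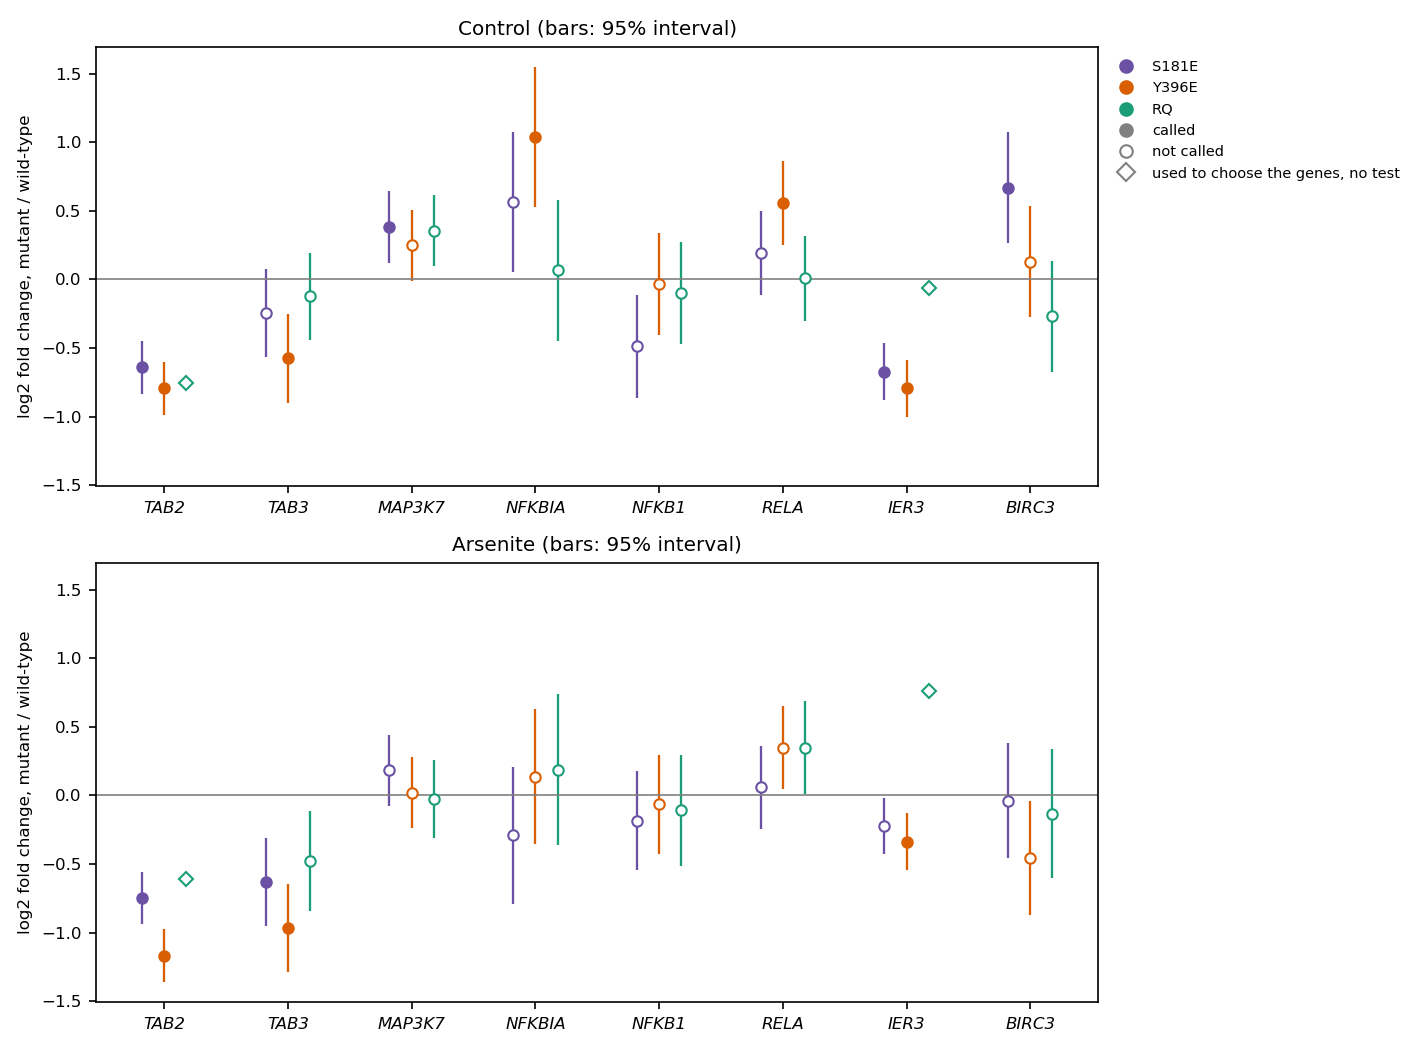
Log2 fold change of each mutant against wild-type for the 8 tested mRNAs in control cells (top) and in arsenite (bottom), with bars for the 95% interval; filled circles are called, open circles are not, and open diamonds are values that chose the genes and carry no interval. TAB2 and TAB3 lie below 0 in every panel and mutant, and IER3 lies below 0 in S181E and Y396E and above it in RQ in arsenite.

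The pathway was then read more widely through 5 lists of other genes, 88 in all, of which 58 were tested. They were 17 of 23 receptors, adaptors and ubiquitin ligases, 14 of 17 kinases and kinase partners, all 3 further NF-κB subunits, 12 of 15 inhibitors and deubiquitinases, and 12 of 30 NF-κB target genes. The 18 target genes that were too low to test included the chemokines CXCL1, CXCL2, CXCL3, CXCL10, CCL2 and CCL20, the cytokines TNF and IL6, and the adhesion molecules ICAM1 and VCAM1. Of the 58 genes, 7 (12.1%) were at least 4-fold over the parental arsenite library in wild-type control cells, close to the 11.7% of all tested genes, and they were BCL2L1, BCL3, CFLAR, F3, MAP2K4, MYD88 and RNF11. In wild-type arsenite cells 3 (5.17%, against 9.18% of all genes) were, namely BCL3, MYD88 and UBE2D3.

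Between arsenite and control these genes were called in both directions, at shares not far from those of all genes. In wild-type cells 18 of 58 (31%) were called higher and 22 (37.9%) lower, where 35.4% and 31.8% of all tested genes were. In S181E 17 (29.3%) and 25 (43.1%) were, against 33.3% and 34.6%, in Y396E 19 (32.8%) and 25 (43.1%), against 31.3% and 33.8%, and in RQ 16 (27.6%) and 20 (34.5%), against 32.4% and 32.3%. Read against these shares, the counts do not set the 58 genes apart. In each line they include NFKBIZ, whose passage of the filter is described below. The median log2 fold change of the 58 was -0.11 in wild-type, -0.20 in S181E, -0.20 in Y396E and -0.11 in RQ. Over all genes it was 0.03, -0.003, -0.02 and -0.004 in the same order. Of the 12 inhibitors and deubiquitinases, 6 were called higher and 2 lower in wild-type (median 0.38), and 4 higher and 2 lower in each mutant (medians 0.11 in S181E, 0.19 in Y396E and 0.18 in RQ). NFKBIZ is among those called higher in every line. Of the 14 kinases and partners, 4 were called higher and 7 lower in wild-type (median -0.28), and the medians were -0.47 in S181E, -0.52 in Y396E and -0.24 in RQ. Neither list was tested as a group.

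NFKBIZ, which encodes the nuclear inhibitor IκBζ, had the largest rise of its list in every line, from a mean of 8.09 to 64.1 CPM in wild-type, a log2 fold change of 3.00, and of 2.79 to 3.63 in the mutants. Its control means were under 10 CPM in all 4 lines, so it passed the filter mainly through the arsenite libraries, in which it was high, and its values are given without a test. Without a filter on low counts its log2 fold change in wild-type was 3.00 too, and the parental libraries held 0 and 30.1 CPM. NFKB2, which encodes the subunit p52 of the non-canonical branch, rose by 1.85 ± 0.14 in wild-type (adjusted p = 1.4e-10) and by 1.46 to 1.57 in the mutants. The parental libraries moved the same way, from 35.1 to 124 CPM, and the wild-type means of 24.8 and 90.7 CPM were below them. RELB and REL, which encode further subunits, were not called higher in any line: RELB was called lower in wild-type (-0.47, adjusted p = 0.049) and S181E (-0.77), and REL lower in S181E (-0.77, adjusted p = 0.00051) and Y396E (-0.89, adjusted p = 0.00011). The RELB call in wild-type was lost without any of wild-type control replicates 1 and 2 and arsenite replicates 1 and 3, and under 6 other settings. TRAF2, a receptor adaptor, rose by 0.88 to 1.08 in wild-type, S181E and Y396E, and LTBR, a TNF-family receptor, by 1.00 in RQ. TBK1, a kinase related to the IκB kinases, rose by 1.52 in wild-type and 1.04 in RQ, and TAB1, the other partner of TAK1, rose in S181E (adjusted p = 3.5e-05) and in Y396E, by 0.89 in the latter. IRF1 and GADD45B led the rises of the target genes, IRF1 with 1.00 in wild-type and 1.30 in RQ and GADD45B with 1.17 in S181E and 0.76 in Y396E. The Y396E calls of TAB1 and GADD45B were lost with the scaling on genes not above the parental libraries.

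The largest falls of the lists were shared between lines too. BCL2L1, an anti-apoptotic NF-κB target, went from a mean of 2209 to 528 CPM in wild-type, by -2.08 ± 0.11 (adjusted p = 2.8e-13), and by -1.74 to -2.01 in the mutants. IRAK1, a kinase of the Toll-like receptor branch, changed by -1.99 ± 0.09 in wild-type (adjusted p = 3.3e-14), -1.92 in S181E and -1.80 in Y396E, and XIAP, a ubiquitin ligase, by -1.81 in RQ. RNF11, a partner of A20, changed by -1.24 in wild-type, -1.83 in S181E, -1.49 in Y396E and -1.32 in RQ. Among the kinases the largest fall was in MAPK9 in wild-type (-0.96), in MAP2K4 in S181E (-1.10) and Y396E (-0.96), and in MAPK8 in RQ (-0.78).

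**Figure D5:**
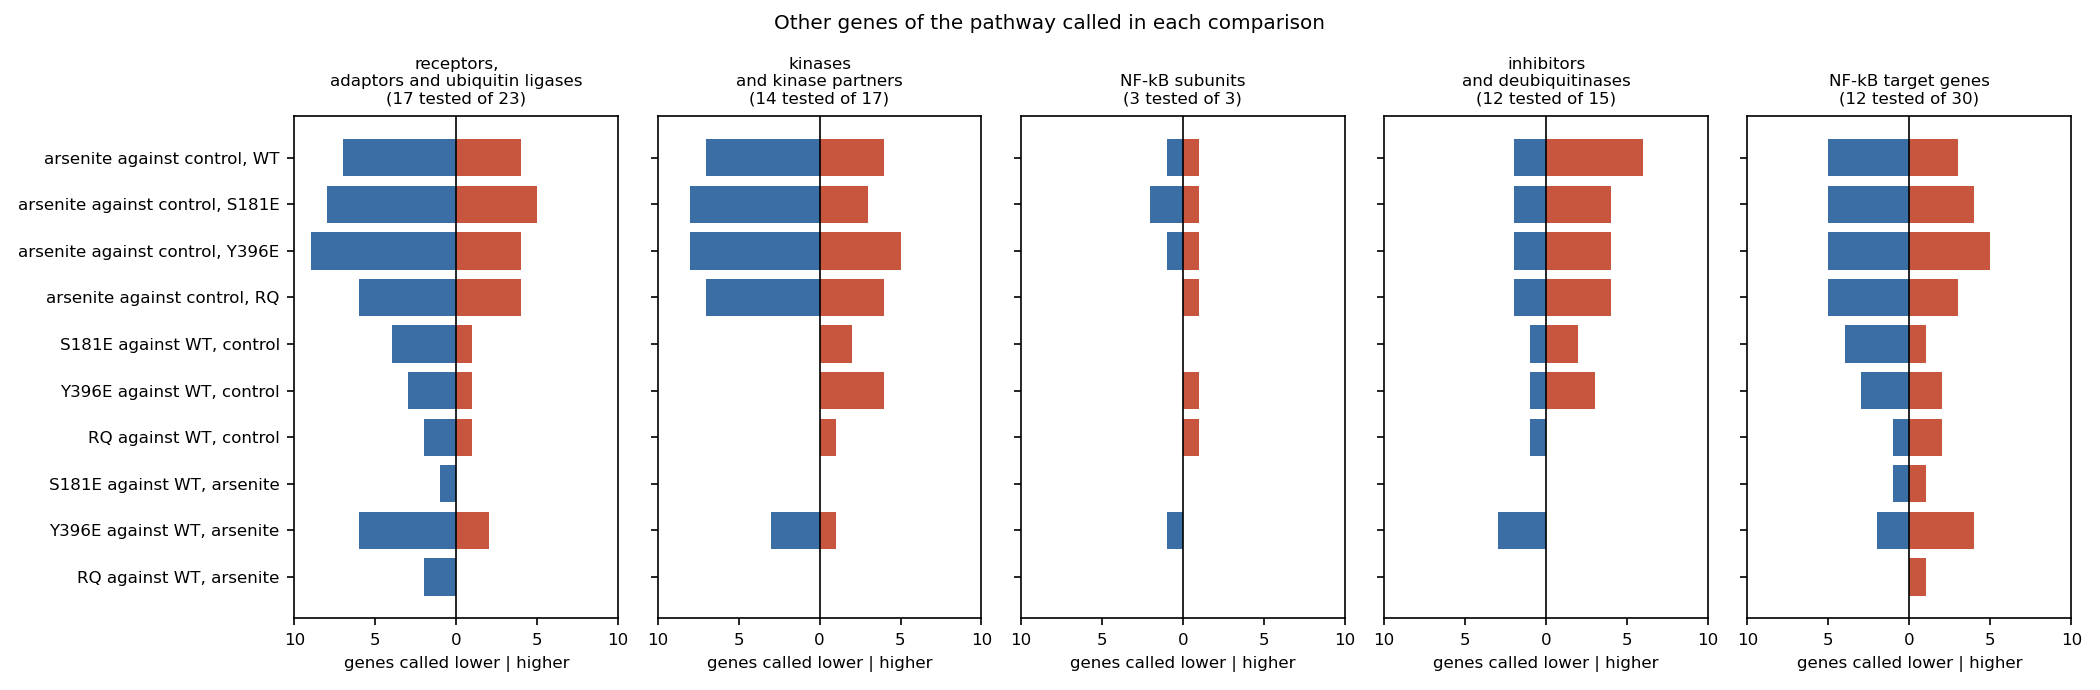
Number of genes of each list called lower (blue, to the left) and higher (red, to the right) in each of the 10 comparisons between 2 groups. Arsenite against control gives calls in both directions in every line, the S181E and RQ comparisons in arsenite give 3 calls each over the 5 lists, and Y396E in arsenite gives 7 higher and 15 lower. The inhibitors called higher in arsenite against control include NFKBIZ in every line, and those called lower in Y396E in arsenite include it too.

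Between lines, in control cells 6 (10.3%) of the 58 genes were called higher and 9 (15.5%) lower in S181E, where 12.8% and 8% of all genes were. In Y396E 11 (19%) and 7 (12.1%) were, against 16.2% and 12.7%, and in RQ 5 (8.62%) and 4 (6.9%), against 3.51% and 2.83%. In arsenite 1 (1.72%) was called higher and 2 (3.45%) lower in S181E, against 2.2% and 5.34%, 7 (12.1%) and 15 (25.9%) in Y396E, against 13.1% and 19.4%, and 1 and 2 in RQ, against 0.286% and 0.218%. The 15 in Y396E include NFKBIZ, whose passage of the filter is described above. These counts moved with the setting: the 15 in S181E control cells ranged from 3 to 25, the 18 in Y396E from 7 to 28 and the 9 in RQ from 0 to 12, and in arsenite the 22 in Y396E ranged from 10 to 35 and fell to between 14 and 17 without any 1 library, and the 3 in RQ ranged from 0 to 8. MYD88, the adaptor of Toll-like and interleukin-1 receptors, was lower than wild-type in arsenite in all 3 mutants, by -0.60 ± 0.11 in S181E (adjusted p = 0.00052), -0.82 ± 0.11 in Y396E (adjusted p = 4e-06) and -0.56 ± 0.12 in RQ (adjusted p = 0.026), and in control cells by -0.57 in Y396E (adjusted p = 0.00038) and -0.48 in RQ (adjusted p = 0.0098). The RQ calls in arsenite, which were MYD88, UBE2D3 (-0.47) and SDC4 (0.55), were each lost when any 1 of the 5 libraries was left out.

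CFLAR, an inhibitor of caspase-8 and an NF-κB target, was lower in Y396E in control cells (-0.996 ± 0.14, adjusted p = 1.9e-05) and in arsenite (-0.97 ± 0.15, adjusted p = 2.5e-05) and in S181E in control cells (-0.71 ± 0.14, adjusted p = 0.0011) and in arsenite (-0.90 ± 0.15, adjusted p = 0.00022). F3, which encodes tissue factor, was higher in both phosphomimetic lines, by 0.45 in S181E and 0.75 in Y396E in control cells and by 0.62 in S181E in arsenite. CHUK, which encodes an IκB kinase, was higher in S181E control cells by 0.71 ± 0.11 (adjusted p = 7.8e-05) and in those of Y396E by 0.58 (adjusted p = 0.00038). UBE2N, the enzyme that builds the chains TAB2 binds, was higher in S181E control cells by 0.55 (adjusted p = 0.0021). RIPK1, a kinase of TNF receptor complexes, was lower in control cells of S181E (-0.92) and RQ (-0.74), and OTUD7B, a deubiquitinase, lower in those of S181E (-0.72) and Y396E (-0.65). In a fit of the compared groups alone the S181E control calls of UBE2N, RIPK1, OTUD7B and F3 and the RQ call of RIPK1 were lost. In Y396E in arsenite REL was lower by -0.84 ± 0.18 (adjusted p = 0.00085), and IRAK1 (0.54), MAP2K3 (0.64) and GADD45B (0.84) were higher, the first of these not under the scaling on genes not above the parental libraries.

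Of the remaining genes, NFKB2 in Y396E (0.74) and PLAU in S181E (-0.73) control cells were called under every alternative run for them, and the calls that follow were each lost under at least 1. In control cells CYLD was higher in S181E (1.06) and Y396E (0.75), MAPK8 in S181E (0.35), Y396E (0.29) and RQ (0.40), IRAK1 (0.35) and MAP3K3 (0.59) in Y396E, and NFKB2 (0.49), RBCK1 (0.39) and SDC4 (0.59) in RQ. Lower values in control cells were those of BCL3 (-0.40) and CD83 (-0.54) in RQ. In Y396E in arsenite TBK1 (-0.61) and RNF11 (-0.29) were called lower, and each was lost without at least 4 of the 6 libraries taken singly. The value of NFKBIZ there was -0.64, given without a test because of its passage of the filter.

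Across the 23 fusion libraries, the mRNAs whose level followed TAB2 most closely on the scale log2(CPM + 0.5) were EIF4G3 (Pearson's r = 0.91), BTG2 (0.89), HS2ST1 (0.88), CCAR1 (0.87) and NIPBL (0.87). Those that followed IER3 were REEP6 (0.96), EREG (0.96), RPL37 (0.95), RNF139 (0.95) and LY6E (0.95). The 23 points share lines and treatments and are no independent samples, and the genes were picked as the highest of 8734, so the values are a description.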

How the data were processed

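RIP-seq counts of 25 libraries were used. Per the labels and the file headers, the authors aligned reads to hg38 with STAR 2.7.11b and counted them per gene with featureCounts 2.0.6 on GENCODE 46 with strand setting 2, and the deposited values are raw counts. Symbols and biotypes were taken from GENCODE 44 by Ensembl identifier: of 63086 identifiers 61547 matched with their version, 62541 with any version, and 545 not at all. The number of library pairs with identical counts was 0. Total RNA libraries were not used here.

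The test covered the 8734 genes of protein-coding biotype above 10 CPM in 11.5 or more of the 23 fusion libraries. Counts were scaled by TMM and fitted with edgeR's quasi-likelihood test (edgeR 4.0.16, R 4.3.3) over 8 groups without covariates, with Benjamini-Hochberg adjustment over all tested genes. Intervals are 95%, and ± gives the SE of a log2 fold change. Printed CPM use TMM factors over all 25 libraries. Where a parental count was 0, a floor of 3 counts took its place. PCR copies were not marked, so counting intervals cover counting error only. Dishes were plated independently from one line per genotype, so p-values measure the spread between these samples.

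The members and lists were chosen with earlier results of these data known. Named genes are the 10 members, for each list and comparison of 2 groups the called gene without overlap that had the highest and the lowest log2 fold change, the 5 genes most correlated with TAB2 and with IER3, and IGF2BP1, IGF2BP2 and IGF2BP3. REL in S181E, MYD88 in RQ control cells, CFLAR in S181E control cells, CHUK in Y396E and UBE2D3 in the interaction were added after their values were seen.

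Same-numbered libraries of 2 groups were checked for pairing by the correlation of their deviations from group means. It was above 0.1 for all 3 numbers only in S181E against wild-type in arsenite (0.29, 0.30 and 0.40), so the pairing there comes from the data and not from the labels. Numbers 2 and 3 were above 0.1 wherever both groups had them. In RQ against wild-type in arsenite, with 2 numbers, both were (0.15 and 0.21). The fit was tested on simulated data. Alternatives changed the scaling, the test (DESeq2 1.42.0 and glmTreat), the gene filter, the samples fitted and the replicate block, or left out 1 library. Sequences were read from hg38 along the MANE Select transcripts of GENCODE 44.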

Additional observations from a re-analysis of the deposited data

Results flagged for a closer look

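Among the genes of the 5 lists, UBE2D3, a ubiquitin-conjugating enzyme, responded to arsenite differently in Y396E and in wild-type cells by the test of the difference itself. Its mean level went from 532 to 749 CPM in wild-type and from 565 to 445 CPM in Y396E. The interaction was -0.83 ± 0.13 on the log2 scale (edgeR's quasi-likelihood test, adjusted p = 0.00083, n = 3 libraries per group), and over 22 alternatives it lay between -0.94 and -0.74 and was called in each. The gene was picked out after its values were seen, as the only 1 of 58 called in that interaction.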

How the results depend on the processing

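The number of members called was within 1.5 times the reported count under most alternatives, and no call changed direction. With all biotypes tested, 3 members were called in arsenite against control in wild-type and 2 in RQ, in place of 5 each, where NFKBIA and BIRC3 were not among the tested genes and TAB3 was no longer called in RQ. With glmTreat 2 members were called in S181E and 3 in Y396E control cells and 1 in S181E in arsenite, in place of 4, 5 and 2. A fit of the compared groups alone called 2 in S181E control cells, 5 in Y396E and 2 in RQ in arsenite, in place of 4, 3 and 0. Total counts as scaling called 1 in RQ control cells and 1 in the Y396E interaction, in place of 0 each, and put 1 member at 4-fold or more over the parental control library in place of 2, while dividing control levels by the parental arsenite library, an alternative added after seeing the data, put 4 there. DESeq2 called 1 in the S181E and 1 in the Y396E interaction, IER3 in both, and all biotypes 1 in the latter. Calls of IER3 in these interactions rest on the wild-type response that chose the gene. With the replicate block 1 member, IER3, was called in the S181E interaction and 2, TAB2 and IER3, in that of Y396E. For those libraries number 1 was not above 0.1 in every check of pairing. In S181E against wild-type in arsenite, where all 3 numbers were, the block changed no call. Leaving out 1 library gave 0 to 1 in RQ control cells (1 without wild-type replicate 1), 1 to 2 in S181E in arsenite (1 without S181E replicate 2 or wild-type replicate 3), 2 to 4 in Y396E in arsenite, and 0 to 1 in the Y396E interaction (1 without wild-type control replicate 1 or 3). Over the 58 genes of the lists, calls in S181E against wild-type in arsenite ranged from 3 to 10 and in the S181E and Y396E interactions from 0 to 7 and 1 to 5, the highest with the replicate block in both interactions. The causes were not tested. Of 1619 recomputed values of single members, 1543 stayed on their side of the threshold, 39 moved past it and 37 fell short of it. Low levels kept TNFAIP3 and CXCL8 below the filter, and the depth of the parental control library limits every ratio to it.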
